A study of Mus musculus with 80 samples.

Results

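The results concern 586 barcoded reporters on mouse chromosome 9, out of 10785 reporters genome-wide. They are the chromosome 9 integrations with at least 10 DNA counts in all 8 DNA libraries of their pool; 596 of the 10903 integrations in the deposited table lie on the chromosome, and 10 of these missed the minimum. The chromosome was chosen by its measured RNA/DNA level without doxycycline (dox), which was high, so the level at that dose, and the windows ranked by it, are given as descriptions with no test. All groups were EBRTcH3 mouse embryonic stem cells, in which the endogenous ROSA26 promoter drives tTA, the tetracycline-controlled transactivator, and all carried a barcoded piggyBac tet-Off reporter library. Cells were grown for 72 h without dox (0 ng/ml) or with 0.01, 0.1 or 100 ng/ml, and each dose was set against 0 ng/ml. Each of 4 pools (A to D) came from transfected cells sorted for low eGFP, and each was divided into 2 technical replicate cultures that grew apart for 7 days before every culture was spread over the 4 doses. RNA and genomic DNA gave 64 barcode libraries, and 16 further libraries mapped the integrations. The titles name a tet-Off reporter while the growth and treatment texts of the labels also speak of a PGK promoter; the titles were followed.

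In a tet-Off system tTA binds operator sequences in front of a minimal promoter and switches it on, and dox releases tTA from the DNA. The piggyBac transposon inserts such reporters at many places, so that the same promoter can be read in many chromatin surroundings, and differences between places are known as position effects. The assay, called TRIP, reads every reporter by its own barcode, counted in cDNA for the transcript and in genomic DNA for the number of copies in the culture.

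Among the 586 barcodes, 577 had 16 bases, 2 had 15 and 7 had 17. Barcodes are random tags of the plasmid library and not sequence of the surrounding genome, so a barcode marks a reporter within its pool and says nothing about its site. The first set below belongs to the 8 reporters with the highest RNA/DNA at 100 ng/ml among those that kept RNA there, the second to the 5 reporters with the largest fitted falls, and the last 2 to the closest neighbours on the chromosome. Each is named by pool, mm9 position and strand, is written 5′ to 3′ as deposited, and has no base singled out.
pool A, 108549799, plus: tccgttattaatccag
pool C, 96621856, minus: cgttaccggagttgtc
pool D, 119327841, plus: taagagtttctatgta
pool A, 19876020, plus: aacgaaataccctatc
pool B, 7798801, plus: attaagaccttcgcct
pool B, 30833514, plus: acttaacaatgagtaa
pool B, 96380583, minus: tatcttcatgcctagt
pool A, 22201997, minus: ttcaattattgttcgt
pool B, 14418058, plus: ccagaaagccagctcg
pool C, 57402523, plus: tgttatcgttcacatg
pool A, 118892482, minus: cgatgcgtatgtttca
pool A, 48917823, minus: ctcttgcgattatagc
pool A, 22770240, plus: aacactacatcaagca
pool A, 14838663, minus: ctcgagccgaagaata
pool A, 14838664, plus: accactaataccccat
The members of the closest pair, 1 base apart on opposite strands, differed at 14 barcode positions. Over all 586 reporters the GC content of the barcode and the level were almost unrelated, with Pearson's r of -0.05 at 100 ng/ml and -0.03 at 0 ng/ml, as a description over reporters that share libraries. In all, 46 of the barcodes also marked a reporter on another chromosome, in 0 cases within the same pool, and 2 chromosome 9 reporters of different pools, at 92767564 (pool A) and 63933091 (pool B), shared 1 barcode.

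The reporters covered the chromosome from position 4235518 to 123955664 in mm9, with 305 on the plus and 281 on the minus strand. Pool A held 121 of them, pool B 119, pool C 169 and pool D 177. The median distance between neighbours was 114222 bases, 70 gaps were under 10 kb, and the largest gap ran 2835169 bases, between 79965804 and 82800973. Genes and other annotation around the sites were not analysed here. Total counts of the RNA libraries ranged from 1390040 to 1840870 at 0 ng/ml, from 1091313 to 1745854 at 0.01 ng/ml, from 799553 to 1691627 at 0.1 ng/ml and from 729108 to 1355706 at 100 ng/ml, and those of the DNA libraries from 923846 to 1571280. Molecular identifiers were not used on the PCR products that were read, so floors and bounds cover counting error only. No gene expression was measured, so the identity of the cells could not be checked.

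Of the members, 3 stood nearest inside the DNA minimum: the pool C reporter at 28306798 and the pool D reporter at 121629576, whose lowest DNA count was 10, and the pool B reporter at 30858930, whose lowest was 11. Nearest outside it were the pool D reporter at 40047489 and the pool C reporter at 53290087, with 9 each, followed by 6 reporters with 8. The excluded reporter at 40047489 had 316 and 467 RNA counts at 0 ng/ml, 354 and 263 at 0.01 ng/ml, 337 and 293 at 0.1 ng/ml and 468 and 261 at 100 ng/ml.

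The level of a reporter is its log2 RNA/DNA ratio scaled by library totals (pseudocount 1), averaged over both replicates and centred on the mean of all reporters of its pool at that dose. It therefore says where a reporter stands among the others at 1 dose, and a fall shared by all reporters does not show in it. At 0 ng/ml chromosome 9 reporters stood 0.26 ± 0.14 above the rest of the genome (mean ± SD over the 4 pools), with differences of 0.17, 0.12, 0.44 and 0.31 in pools A to D. The difference was 0.20 ± 0.23 at 0.01 ng/ml, -0.0069 ± 0.277 at 0.1 ng/ml and -0.18 ± 0.18 at 100 ng/ml. At 100 ng/ml the pools gave -0.31, -0.22, 0.09 and -0.28, so by means pool C alone stayed above the rest. Differences of medians at 100 ng/ml were 0.12, -0.51, 0.0006 and -0.23 in pools A to D. At 0 ng/ml they were -0.06, 0.33, 0.31 and 0.38. In pool A the sign thus depended on the measure at both doses. Among 20 chromosomes without Y, chromosome 9 ranked 4th, 5th, 9th and 14th at the 4 doses in ascending order. The low standing at 100 ng/ml depended on how reporters were weighted: with each 1 Mb block counted once the difference there was 0.05 and no longer negative, and with a DNA minimum of 100 it was -0.41.

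Chromosome 9 took a smaller share of the RNA counts at the highest dose and a share of the DNA counts in the same range. It gave 2.36% to 3.74% of a library's RNA counts at 100 ng/ml, against 4.73% to 7.09% at 0 ng/ml. The level at 0 ng/ml chose the chromosome, so a lower share at another dose is partly built in, and it was not tested. The share also rests on few reporters: at 100 ng/ml the 10 with the most counts held 45.7% of the chromosome's RNA counts. Its share of the DNA counts lay between 4.78% and 6.33% at 100 ng/ml and between 4.76% and 6.32% at 0 ng/ml. For DNA alone, edgeR called 0 of the 586 reporters in 100 against 0 ng/ml (0.0% of all reporters in either direction), 23 had an unadjusted p under 0.05, and DESeq2 called 0. Leaving out replicate 2 at 0 ng/ml gave 1 DNA call.

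**Figure D1:**
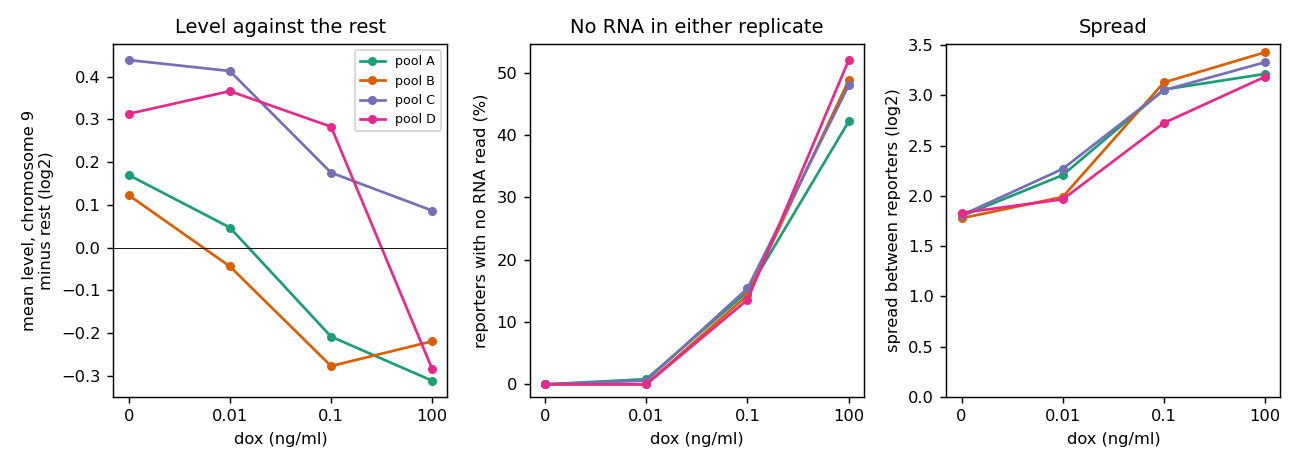
Left, mean level of chromosome 9 minus the rest of the genome (log2) in each pool and dose; middle, percent of chromosome 9 reporters with no RNA read in either replicate; right, spread between chromosome 9 reporters (log2). Each line is 1 pool, and no more than 52.0% of the reporters of a pool were without RNA at 100 ng/ml.

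The dose sorted the reporters into those that stayed detectable and those that did not. The number of the 586 reporters with no RNA count in either replicate was 0 at 0 ng/ml, 2 at 0.01 ng/ml, 85 at 0.1 ng/ml and 282 at 100 ng/ml, or 0%, 0.341%, 14.5% and 48.1%. At 100 ng/ml the share was 42.1%, 48.7%, 47.9% and 52.0% in pools A to D. Averaged over pools the share rose with dose (two-sided exact permutation test, shuffling doses inside each pool, p = 2.41e-05; the smallest possible is 6.03e-06). The rest of the genome had a mean share of 48.1% ± 2.29 (SD, n = 4 pools) at 100 ng/ml, beside 47.7% ± 4.09 on chromosome 9. RNA libraries were shallower at the higher doses, as given above, and the part of depth in this share was not tested. In bulk cultures fewer cells transcribing a reporter and less RNA per cell cannot be told apart.

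Reporters on the chromosome also moved apart from each other. Their spread, the square root of the covariance of both replicates of the log2 ratio, was 1.80 ± 0.02 at 0 ng/ml, 2.11 ± 0.15 at 0.01 ng/ml, 2.99 ± 0.18 at 0.1 ng/ml and 3.29 ± 0.11 at 100 ng/ml (log2, SD over 4 pools). The increase with dose gave p = 6.03e-06 in the two-sided exact permutation test, the smallest value it allows. The spread of the rest of the genome was 2.00, 2.32, 3.25 and 3.43 at the same doses. The size of the increase rests on the low counts: between 0 and 100 ng/ml it was 1.49 with a pseudocount of 1 and 0.14 with a pseudocount of 50. Replicates of the level correlated with r between 0.651 and 0.754 over the chromosome 9 reporters of a pool at 100 ng/ml and between 0.855 and 0.904 at 0 ng/ml, so single sites are less certain at the highest dose.

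Levels at 0 ng/ml varied along the chromosome, and the length scale of this variation was not tested. Between the lowest and the highest reporter they ran from -5.82 to 6.17 with a median of 0.43. In windows of 5 Mb counted from the first base, 24 of which held 5 or more reporters, 14 windows averaged above the pool means and 10 below, and the highest and lowest window means lay 3.26 apart. The windows had the same sign in pools A and B as in pools C and D in 20 of 24 cases. Over these 24 windows the means of the 2 pairs of pools correlated with r = 0.25 at 100 ng/ml and with r = 0.70 at 0 ng/ml, as descriptions over windows with different numbers of reporters. Between the number of reporters in a window and its mean level, r was 0.17 at 100 ng/ml and 0.69 at 0 ng/ml over 24 windows, so windows with more reporters stood higher without dox.

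**Figure D2:**
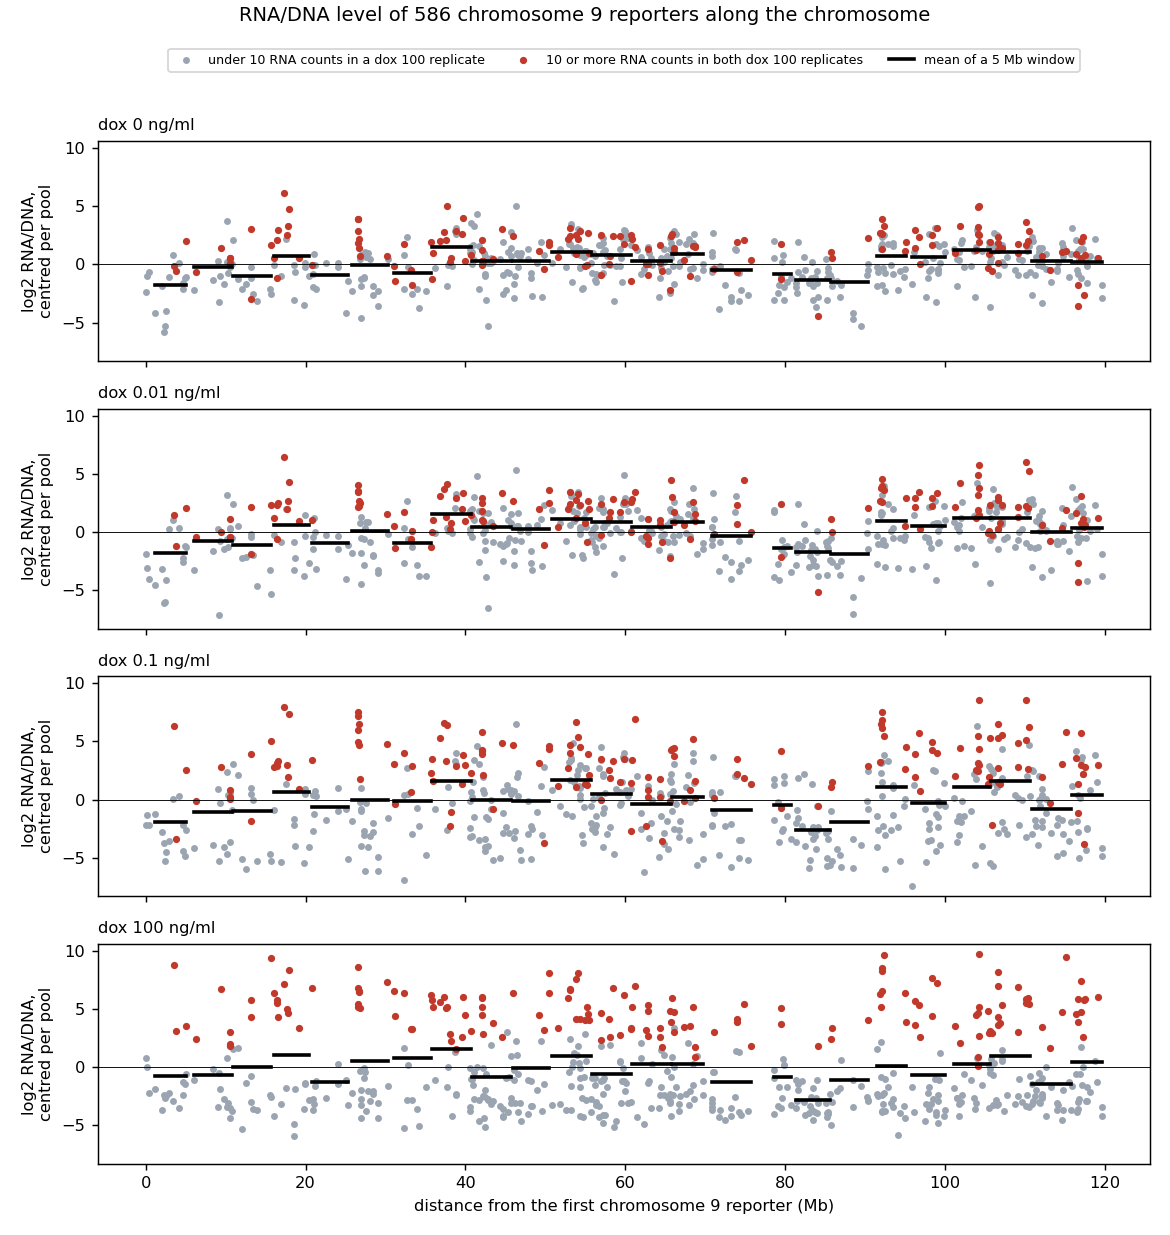
Level (log2 RNA/DNA, centred per pool) of the 586 reporters against the distance from the first one (Mb), with 1 panel per dose in ascending order. Red points are the 164 reporters with 10 or more RNA counts in both replicates at 100 ng/ml, grey points are the others, and black bars are means of 5 Mb windows.

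The highest window lay at 40 to 45 Mb (window 9), where 24 reporters averaged 1.54 ± 0.35 (SE over reporters) at 0 ng/ml and 19 of them stood above their pool mean. Its pool means were 1.29, 0.54, 1.84 and 1.80 in pools A to D. Its means were 1.55 at 0.01 ng/ml, 1.64 at 0.1 ng/ml and 1.54 at 100 ng/ml; at 0.1 ng/ml the window at 55 to 60 Mb (window 12) stood slightly above it, at 1.67. The next were the windows at 105 to 110 Mb (window 22) with 1.25 ± 0.35 over 30 reporters, at 55 to 60 Mb (window 12) with 1.10 ± 0.23 over 37, and at 110 to 115 Mb (window 23) with 1.06 ± 0.20 over 33. At 100 ng/ml these windows averaged 0.29, 0.96 and 0.99 in the same order. In each of the 4 windows every pool mean was positive at 0 ng/ml. They held 124 of the 586 reporters, and without them the mean level of the other chromosome 9 reporters was 0.01, beside 0.27 over all 586 and -0.02 in the rest of the genome; leaving out the highest windows lowers a mean by construction.

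At a finer grain the high windows were uneven. Of 74 blocks of 1 Mb with 4 or more reporters, 19 averaged above 1 and 7 below -1 at 0 ng/ml. Within window 9 the block at 43 to 44 Mb averaged 3.07 over 5 reporters, with no reporter under 2.62, and the block at 41 to 42 Mb averaged 2.01 over 5 reporters with a range from -1.85 to 5.02. At 100 ng/ml the block at 41 to 42 Mb averaged 4.04 ± 1.44 (SE over reporters), with 4 of 5 reporters keeping RNA and 1 of 5 called lower. The block at 43 to 44 Mb averaged 1.10 ± 1.59, with 3 of 5 keeping RNA and 4 of 5 called lower. In window 22 the block at 108 to 109 Mb held 11 reporters with a mean of 1.84 at 100 ng/ml and 2.21 at 0 ng/ml, and 7 of them kept RNA. In window 12 the block at 57 to 58 Mb averaged 1.90 over 10 reporters, and in window 23 the block at 114 to 115 Mb averaged 1.44 over 8. Of the other blocks above 1, outside the 4 windows, the 3 highest lay at 21 to 22 Mb (2.47 over 4 reporters), 30 to 31 Mb (1.98 over 7) and 64 to 65 Mb (1.90 over 8), and the one with the most reporters lay at 96 to 97 Mb (1.40 over 15).

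The lowest windows at 0 ng/ml were those at 5 to 10 Mb (window 2) with -1.72 ± 0.57 over 15 reporters, at 90 to 95 Mb (window 19) with -1.47 ± 0.59 over 14, at 85 to 90 Mb (window 18) with -1.32 ± 0.28 over 26, and at 15 to 20 Mb (window 4) with -0.98 ± 0.56 over 13. Not every pool was low in them. In window 2 the means were -1.99, -0.75 and -2.57 in pools B to D, and pool A had no reporter there. In window 19 they were -2.62, -0.06, 0.63 and -2.23 in pools A to D, and without pool A the window averaged -0.61. In window 18 they were -1.73, -1.67, -1.63 and 0.14, and in window 4 -0.54, -1.40, 0.43 and -2.53, with an average of -0.52 in window 4 without pool D. The window at 85 to 90 Mb was the lowest of the 24 at 0.1 ng/ml, with -2.60, and at 100 ng/ml, with -2.83. At 100 ng/ml it stood below the pool mean in all 4 pools, at -3.59, -2.58, -3.32 and -2.07 in pools A to D. Of its 26 reporters 21 had no RNA count in either replicate at 100 ng/ml, and 1 kept RNA. At 0 ng/ml the lowest block of 1 Mb, at 6 to 7 Mb, averaged -4.22 over 4 reporters. The 5 lowest reporters at 0 ng/ml were 3 of pool D at 6469381, 6609948 and 93733593, 1 of pool C at 47041263 and 1 of pool A at 92778328. Each had at most 24 RNA counts over both replicates at 0 ng/ml and 0 in all 4 libraries of 0.1 and 100 ng/ml. Their DNA counts at 0 ng/ml lay between 112 and 889, so the barcodes were present in the cultures.

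**Figure D3:**
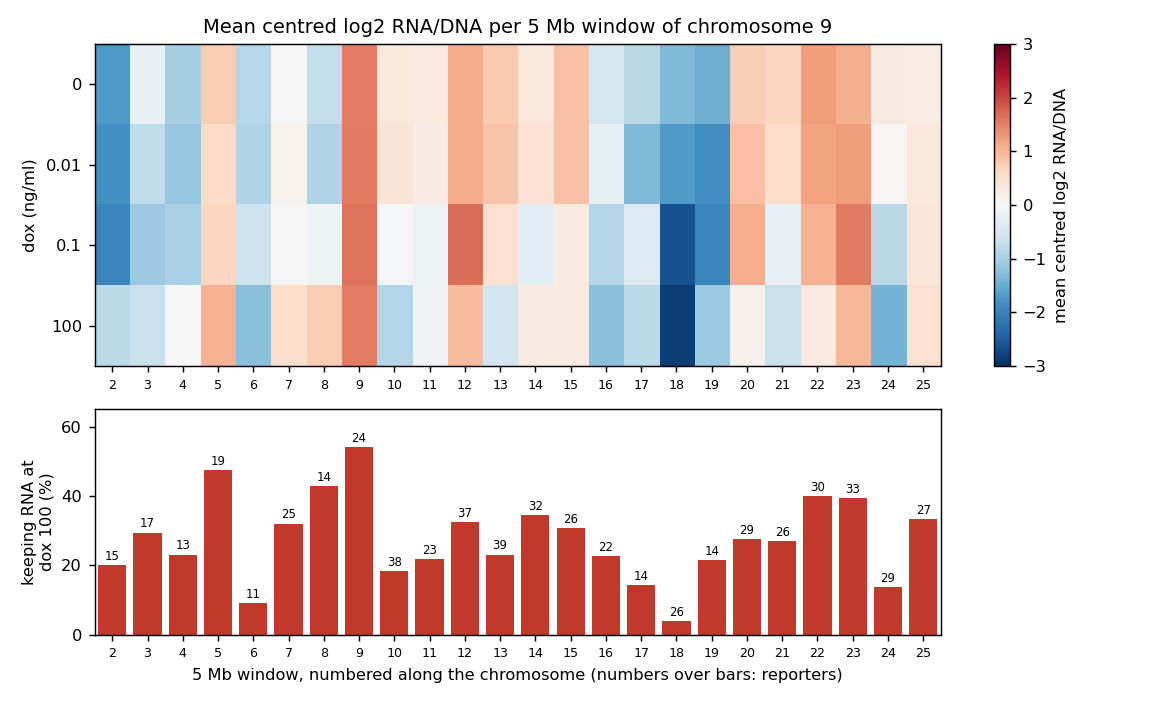
Top, mean level (log2 RNA/DNA, centred per pool) of each 5 Mb window, numbered along the chromosome, at the 4 doses; bottom, percent of a window's reporters with 10 or more RNA counts in both replicates at 100 ng/ml, with the number of reporters over the bar. Window 9 is the highest at 0 ng/ml (1.54) and window 18 the lowest at 100 ng/ml (-2.83).

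Dose was compared reporter by reporter with edgeR, fitted per pool over all 16 libraries with scaling by TMM within RNA and within DNA libraries and Benjamini-Hochberg adjustment at 0.05. A call says that RNA/DNA changed relative to this scaling. The scaling did not take out the change of the typical reporter. Under it the fitted median log2 change of all reporters was -0.80 at 0.1 ng/ml and -4.12 at 100 ng/ml. At 0.01 ng/ml against 0, edgeR called 0 of the 586 reporters lower (0.0% of all reporters) and 0 higher (0.0185% of all), while 29 had an unadjusted p under 0.05. DESeq2 called 5 lower and 1 higher, and edgeR with the culture number as a block called 1 higher.

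At 0.1 ng/ml against 0, 109 of the 586 reporters fell (18.6%, beside 19.8% of all reporters) and 42 rose (7.17%, beside 9.07% of all). Both shares were near those of the whole set. The median log2 change was -0.89 on chromosome 9 and -0.80 over all reporters, or -0.86 and -0.68 with reporters that had no RNA at 0.1 ng/ml placed at their bound. Of the calls on the chromosome 27.8% were rises under TMM, against 10.3% with DESeq2's size factors (183 lower, 21 higher) and 8.81% with library totals (207 lower, 20 higher). These scalings moved the median of all reporters by -0.97 and -1.16, so the split into rises and falls is relative to the scaling. Without replicate 1 at 0 ng/ml the counts were 60 lower and 26 higher, and without replicate 2 at 0 ng/ml 55 lower and 24 higher.

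All 5 of the largest fitted falls at 0.1 ng/ml had 0 counts at that dose. The pool A reporter at 110268192 had 0 and 0 RNA counts at 0.1 ng/ml against 230 and 301 at 0 ng/ml. With the DNA counts taken as measured, its RNA/DNA was at least 212-fold lower, at a floor of 3 counts over both libraries (edgeR adjusted p = 0.00131). Those DNA counts were uneven, 61 and 403 at 0 ng/ml against 317 and 991 at 0.1 ng/ml. The bound does not allow for error in them, so part of its size rests on DNA. On the same terms the pool D reporter at 119066337 was at least 69.3-fold lower and the pool B reporter at 48559701 at least 63.1-fold lower. Both also had no RNA count at 0.1 ng/ml. At 119066337 the DNA counts were uneven as well, 284 and 36 at 0 ng/ml against 365 and 123 at 0.1 ng/ml. Among the 5 largest falls, those of pool B at 31702681 and 100169016 were less secure. Both had 0 and 0 counts at 0.1 ng/ml, yet 47 and 0 counts for the first and 0 and 152 for the second at 100 ng/ml. Their adjusted p in edgeR at 0.1 ng/ml was 0.0115 and 0.0182; the call at 100169016 was lost without any 1 of the 4 replicates (adjusted p between 0.0772 and 0.11), and that at 31702681 without 3 of them (between 0.0528 and 0.0771).

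Rises at 0.1 ng/ml were led by the pool B reporter at 7798801, in the lowest window of the chromosome at 0 ng/ml. Its RNA counts were 297 and 277 at 0 ng/ml, 472 and 610 at 0.01 ng/ml, 2779 and 3039 at 0.1 ng/ml and 2753 and 6128 at 100 ng/ml, beside 280 and 536 DNA counts at 100 ng/ml and 378 and 731 at 0 ng/ml. Its log2 change was 5.51 ± 0.48 (SE) at 0.1 ng/ml (edgeR adjusted p = 4.13e-05) and 6.43 ± 0.48 at 100 ng/ml (edgeR adjusted p = 2.93e-06). The RNA counts of both cultures were higher at 0.1 and at 100 ng/ml than of either culture at 0 ng/ml. The other 4 largest rises at 0.1 ng/ml were 4.15 ± 0.57 in the pool D reporter at 30880214, 4.15 ± 0.68 in pool C at 65489978, 3.80 ± 0.54 in pool B at 30833514 and 3.76 ± 0.62 in pool C at 96389213 (log2, SE). All 4 were also called higher at 100 ng/ml, in a comparison that shares the libraries at 0 ng/ml.

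At 100 ng/ml against 0, 314 of the 586 reporters fell (53.6%, beside 50.4% of all reporters) and 53 rose (9.04%, beside 10.9% of all). These shares too were near those of the whole set. In pools A to D 60, 64, 90 and 100 reporters fell and 8, 16, 14 and 15 rose. The fitted median log2 change was -5.11 on chromosome 9 and -4.12 over all reporters, and with the reporters without RNA at 100 ng/ml placed at their bound it was -2.79 and -2.23. No RNA count was seen in either library at 100 ng/ml for 263 of the 314 falling reporters (83.8%), and all 53 rising reporters had RNA in both. With DESeq2's size factors 348 fell and 30 rose, and with library totals 375 fell and 26 rose.

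**Figure D4:**
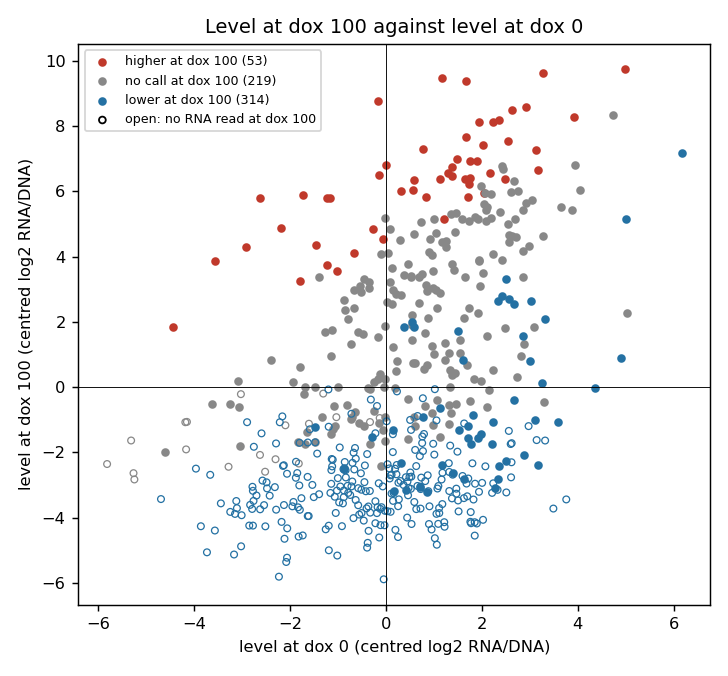
Level at 100 ng/ml against level at 0 ng/ml (both log2 RNA/DNA, centred per pool) for the 586 reporters, coloured by the edgeR call for 100 against 0 ng/ml (53 higher, 219 without a call, 314 lower). Open symbols are reporters with no RNA read at 100 ng/ml, whose height is set by the pseudocount and their DNA counts.

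The 5 largest fitted falls all had 0 counts at 100 ng/ml, so their order is not fixed by the data, and the fold bounds are given instead. The pool B reporter at 14418058 had 2584 and 2910 RNA counts at 0 ng/ml, 1810 and 2013 at 0.01 ng/ml, 293 and 160 at 0.1 ng/ml and 0 and 0 at 100 ng/ml. Its RNA/DNA was at least 575-fold lower at 100 ng/ml (edgeR adjusted p = 3.72e-06). The pool C reporter at 57402523 had 2896 and 3091, 2554 and 2707, 451 and 378, and 0 and 0 RNA counts at the 4 doses in ascending order and was at least 704-fold lower at 100 ng/ml (edgeR adjusted p = 4.01e-07). Both lost RNA in steps, with most of the counts gone at 0.1 ng/ml. Pool A gave the other 3, again with 0 counts in both libraries at 100 ng/ml: RNA/DNA was at least 461-fold lower at 118892482, at least 363-fold lower at 48917823 and at least 319-fold lower at 22770240.

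Of the 586 reporters 164 kept RNA at the highest dose, defined as 10 or more RNA counts in both replicates at 100 ng/ml. That is 28.0%, beside 29.1% in the rest of the genome (2973 of 10199). The share was 28.1%, 28.6%, 30.8% and 24.9% in pools A to D, and it was 28.5% on the plus and 27.4% on the minus strand. Few reporters lay near the limit: the lower of both counts was 5 to 9 in 2 reporters and 10 to 14 in 1. Another 137 reporters had RNA in 1 of the 2 replicates only. Read from a single replicate, 236 reporters passed in replicate 1 and 213 in replicate 2.

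Reporters with a higher level at 0 ng/ml kept RNA more often. In 4 classes of ascending level at 0 ng/ml, each of 145 to 149 reporters, 9.66%, 18.5%, 33.6% and 49.7% kept RNA, given without a test because the level at that dose chose the chromosome. The limit of 10 is on RNA counts, not on RNA/DNA or fold change. A reporter that starts with more RNA passes it more easily after the same fold fall, so part of this gradient is built in. The 164 averaged 1.31 at 0 ng/ml and the other 422 averaged -0.14. There were exceptions: 14 reporters of the lowest class kept RNA, and the 2nd highest reporter at 0 ng/ml, of pool D at 50535778, had 182 and 0 counts at 100 ng/ml against 3551 and 3564 at 0 ng/ml. Among the 164, edgeR called 53 higher, 17 lower and 94 neither. The 164 held 96.0% of all RNA counts of chromosome 9 at 100 ng/ml, and the 10 reporters with the most counts held 45.7%.

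Taking 10 counts in both replicates as detection at every dose, 154 reporters were detected at all 4 doses and 14 at none. A further 206 were detected up to 0.1 ng/ml and not at 100 ng/ml, 178 up to 0.01 ng/ml, and 23 at 0 ng/ml only. Another 10 were detected at 100 ng/ml while they missed the limit at 0.1 ng/ml, and 1 was detected at 0 and 0.1 ng/ml only.

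The highest of all at 100 ng/ml was the pool A reporter at 108549799, which was also the 4th highest at 0 ng/ml. Its RNA counts were 15566 and 17504 at 0 ng/ml, 25308 and 23908 at 0.01 ng/ml, 48211 and 48044 at 0.1 ng/ml and 14487 and 13312 at 100 ng/ml. The cultures lay close together at each dose, and the counts at 100 ng/ml lie somewhat under those at 0 ng/ml while the level among the other reporters is higher, 9.74 at 100 ng/ml against 4.99 at 0 ng/ml. The log2 change relative to the scaling was 1.71 ± 0.26 (SE, edgeR adjusted p = 0.000215). The 5th highest at 0 ng/ml, of the same pool at 108363859 and on the minus strand, did the opposite, with 68 and 20 RNA counts at 100 ng/ml against 13337 and 15365 at 0 ng/ml. Its log2 change was -6.82 ± 0.60 (SE, edgeR adjusted p = 1.03e-05). The highest at 0 ng/ml, of pool C at 21570308, had 989 and 1496 counts at 100 ng/ml against 6528 and 7075 at 0 ng/ml and fell by 1.86 ± 0.70 on the log2 scale (SE, edgeR adjusted p = 0.0373). The 3rd highest, of pool D at 41917827, had 164 and 172 counts at 100 ng/ml against 1540 and 2069 at 0 ng/ml, and it fell as well (-2.65 ± 0.60, SE, edgeR adjusted p = 0.0029).

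Next in level at 100 ng/ml came the pool C reporter at 96621856, with 1991 and 1793 RNA counts at 100 ng/ml against 1002 and 900 at 0 ng/ml and a log2 change of 3.53 ± 0.44 (SE). The pool D reporter at 119327841 had 5413 and 5161 counts at 100 ng/ml against 604 and 579 at 0 ng/ml and changed by 5.38 ± 0.51. In both, neither culture at 100 ng/ml overlapped with those at 0 ng/ml even before the difference in depth is taken into account. Raw counts also depend on the other reporters of a library, and 48.35% of all reporters had no RNA count at 100 ng/ml. Higher counts alone therefore do not show more RNA. The pool A reporter at 19876020 had 709 and 694 counts at 100 ng/ml against 147 and 172 at 0 ng/ml; its DNA counts, 104 and 18 at 100 ng/ml against 138 and 49 at 0 ng/ml, were low and uneven, and its change of 4.31 ± 1.04 carries the larger error. The last of the 8, of pool A at 22201997, had 2497 and 2616 counts at 100 ng/ml against 1661 and 1876 at 0 ng/ml and passed no test (log2 change 0.94 ± 0.88, edgeR adjusted p = 0.388).

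Of the 5 largest rises at 100 ng/ml, 3 belonged to reporters with few RNA counts at 0 ng/ml. The pool D reporter at 121629576 had 78 and 175 counts at 100 ng/ml against 16 and 19 at 0 ng/ml, with 0 and 0 at 0.1 ng/ml (log2 change at 100 ng/ml 5.39 ± 1.17, SE); its lowest DNA count, 10, is at the minimum. The pool C reporter at 120857357 had 410 and 431 counts at 100 ng/ml against 48 and 60 at 0 ng/ml (4.71 ± 0.76). The pool B reporter at 88357406, which is the 1 reporter of the window at 85 to 90 Mb that kept RNA, had 18 and 391 counts at 100 ng/ml against 17 and 35 at 0 ng/ml (4.71 ± 1.34, edgeR adjusted p = 0.0125). That call rests on 1 library: without replicate 2 at 100 ng/ml the log2 change was 0.79 and the adjusted p 0.505, and the call was also lost without either replicate at 0 ng/ml.

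The share of reporters that kept RNA differed between windows, and whether it differed beyond chance was not tested. The largest shares by 5 Mb window were 54.2% (13 of 24 reporters) at 40 to 45 Mb (window 9), 47.4% (9 of 19) at 20 to 25 Mb (window 5) and 42.9% (6 of 14) at 35 to 40 Mb (window 8). The last of these averaged 0.75 at 100 ng/ml and -0.72 at 0 ng/ml. Pools differed in sign in all 3 windows at 100 ng/ml. In pools A to D the means were 4.55, -1.19, 2.46 and 1.32 in window 9 and -0.46, 0.90, 0.56 and 4.92 in window 5. In window 8 they were 3.33, -0.05, 4.69 and -2.50. The 4 windows that averaged above 1 at 0 ng/ml together kept RNA in 50 of 124 reporters (40.3%), and the 3 that averaged below -1 in 7 of 55 (12.7%). Here too the limit is on RNA counts, so part of this difference is built in. Window means at 100 and at 0 ng/ml correlated with r = 0.64 over 24 windows. The means at both doses come from the same reporters and cultures, with separate RNA and DNA libraries per dose. In 12 of the 74 blocks of 1 Mb at least 50% of the reporters kept RNA, and in 13 none did. The block at 30 to 31 Mb had the highest share, 6 of 7.

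Levels of close neighbours were compared pair by pair. Over 77 pairs under 10 kb apart, made of 126 reporters, the levels correlated with r = 0.21, 0.25, 0.47 and 0.50 at the 4 doses in ascending order. For the 53 pairs whose reporters came from different pools, and so from different cultures, r was 0.26, 0.34, 0.50 and 0.49. Between 10 and 100 kb (383 pairs) r was 0.26, 0.25, 0.34 and 0.16 at the 4 doses in ascending order, and between 100 kb and 1 Mb (2932 pairs) it was 0.13, 0.12, 0.04 and 0.0031. Differences between these values were not tested, and the spread between reporters also differed by dose, as given above. These are descriptions without a test, since a reporter enters several pairs. Under 10 kb both ends of each pair were counted, so a reporter counts once per pair. Of 59 ends next to a reporter that kept RNA, 61.0% kept it too, against 24.2% of 95 next to one that did not. In pairs from different pools the shares were 59.1% of 44 and 29.0% of 62.

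The pair 1 base apart, at 14838663 and 14838664 in pool A, kept RNA on both sides. The reporter at 14838663 had 215 and 113 RNA counts at 100 ng/ml against 512 and 630 at 0 ng/ml, and that at 14838664 had 69 and 185 at 100 ng/ml against 898 and 1211 at 0 ng/ml. At 100 ng/ml the reporter at 14838664 was called lower (log2 change -1.69, edgeR adjusted p = 0.0472), and that at 14838663 had no call. The next closest, 11 bases apart at 89502317 (pool A) and 89502328 (pool C), had 0 counts in all their libraries at 100 ng/ml. The third, 17 bases apart at 84132679 (pool D) and 84132696 (pool B), had 159 and 0 counts and 97 and 0 counts at 100 ng/ml. Of 13 pairs under 1 kb, both reporters kept RNA in 4, 1 did in 2 and neither did in 7. Close neighbours could still differ: their levels lay up to 5.31 apart at 100 ng/ml and up to 3.79 at 0 ng/ml. The pair farthest apart at 100 ng/ml, named after its values were seen, sits 390 bases apart at 46437350 (pool A) and 46437740 (pool C), with 126 and 68 RNA counts in the first and 0 and 0 in the second at 100 ng/ml.

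Chains were runs of reporters with gaps of at most 50 kb. There were 19 chains of 4 or more, with 85 reporters, of which 36 (42.4%) kept RNA. That stands beside 28.0% of the 586 chromosome 9 reporters and 29.1% of all reporters, and the difference was not tested. All members kept RNA in 2 chains and none in 1. Of the 7 chains of 5 or more, which are all named here because of ties, the one from 30833514 to 30926181 kept RNA in 5 of 5 reporters, from pools B, C and D. It averaged 6.73 at 100 ng/ml and 2.46 at 0 ng/ml, and 3 of its reporters rose and none fell. Its first reporter, of pool B, had RNA counts of 1161 and 1261 at 0 ng/ml, 2204 and 2374 at 0.01 ng/ml, 6115 and 6129 at 0.1 ng/ml and 2533 and 3895 at 100 ng/ml (log2 change at 100 ng/ml 3.33 ± 0.54, SE, edgeR adjusted p = 0.000362). Its last, also of pool B and 92668 bases along the chain counted inclusively, had 606 and 802 counts at 100 ng/ml against 1219 and 1482 at 0 ng/ml, a log2 change of 1.80 relative to the scaling (edgeR adjusted p = 0.0111). The other chain in which all kept RNA, chosen after its values were seen, ran from 46307698 to 46366206 with 1 reporter of each pool. Its levels at 100 ng/ml lay between 4.53 and 6.01, against -0.06 to 2.07 at 0 ng/ml, and 3 of the 4 rose.

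**Figure D5:**
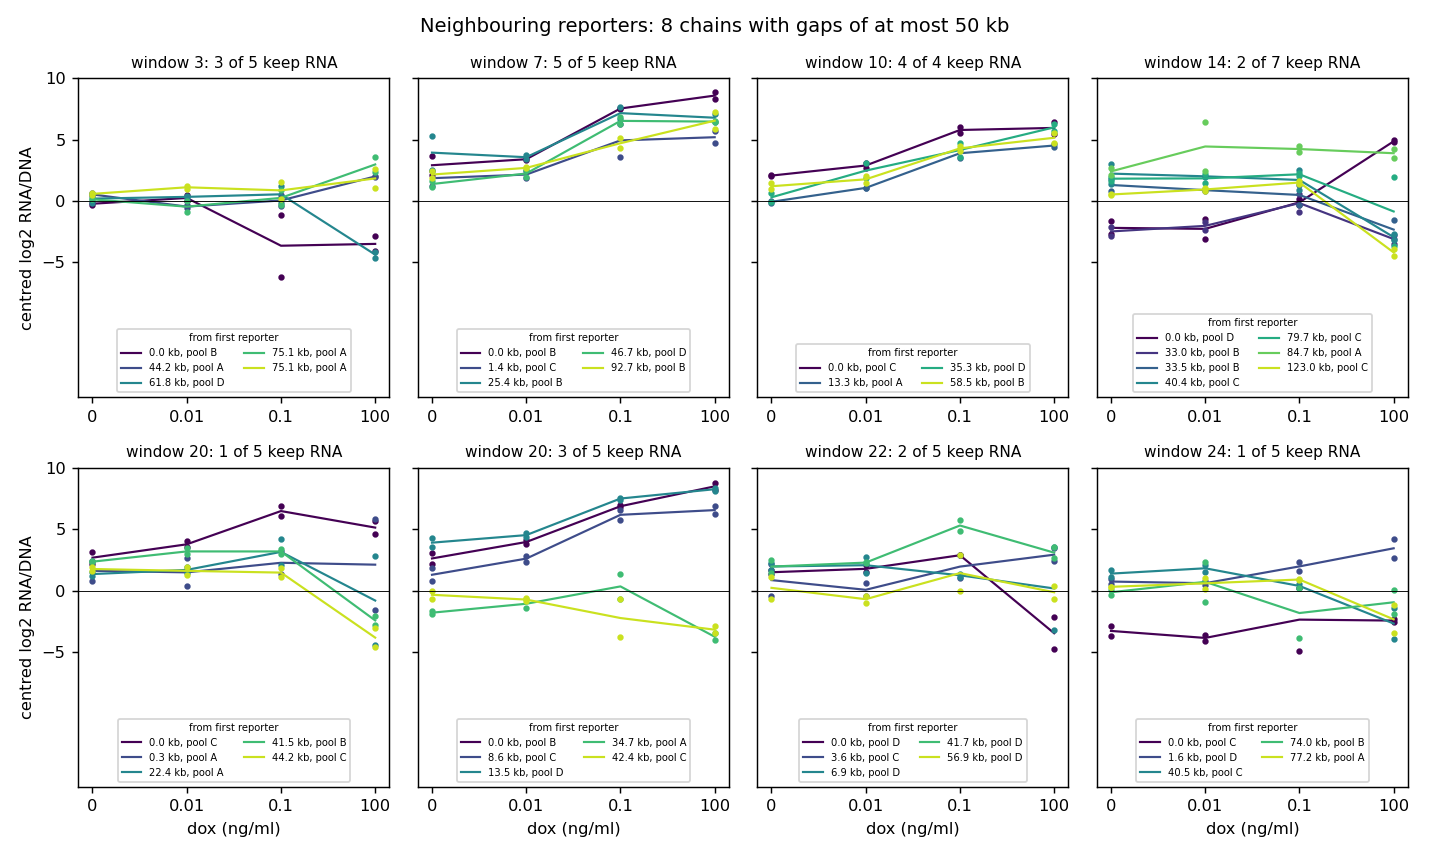
Level (log2 RNA/DNA, centred per pool) at the 4 doses for the 7 chains of 5 or more reporters and the chain of 4 that all kept RNA, in order along the chromosome. Lines join means of 2 replicates, points are replicates, and the legends give the distance from the chain's first reporter; in 2 chains all reporters kept RNA and in the others they parted at 100 ng/ml.

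Elsewhere neighbours parted. In the chain of 7 from 69851189 to 69974173, 2 kept RNA, 1 rose and 5 fell: the pool D reporter at 69851189 had 354 and 268 counts at 100 ng/ml against 36 and 41 at 0 ng/ml, while the pool C reporter at 69974173 had 0 and 0 against 702 and 662. Around 96 Mb 2 chains stood close together. From 96263604 to 96307756 1 of 5 reporters kept RNA, and from 96380583 to 96422933 3 of 5 did, with those 3 called higher and the other 2 lower. The pool D reporter at 96394037 in the second had 6473 and 6219 RNA counts at 100 ng/ml against 6065 and 5885 at 0 ng/ml, and the pool A reporter at 96415319, some way along the same chain, had 0 and 0 against 104 and 166. The pool B reporter at 96380583, which opens that chain, had 1781 and 2162 counts at 100 ng/ml against 688 and 746 at 0 ng/ml (log2 change 3.37 ± 0.36, SE, edgeR adjusted p = 2.14e-05). In the remaining chains 3 of 5 kept RNA from 14763574 to 14838664, 2 of 5 from 109769891 to 109826839 and 1 of 5 from 116336019 to 116413244. Of their reporters 4, 2 and 2 were called lower in the same order, and 0 higher in each. Keeping RNA thus did not exclude a fall.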

How the data were processed

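The deposited table holds raw read counts per barcode, not normalized, in separate cDNA and genomic DNA columns per the file headers, beside each reporter's chromosome, position and strand. The submitters' processing notes name Bowtie2 2.0 and mm9, with no role; barcode calling and filtering are steps not given in the sources used here. Positions are those of the table, and the mapping libraries were used through them alone. Reporters needed 10 or more counts in all 8 DNA libraries of the pool. Tests on counts used a quasi-likelihood model per pool (edgeR 4.0.16, R 4.3.3) over its 16 libraries (assay, dose, assay by dose). RNA and DNA libraries were scaled apart by TMM, and p-values were adjusted by Benjamini-Hochberg over all reporters of a pool. The test was also run on simulated data. The outcome of that run is not given here, so nothing about the calls is concluded from it. An SE is the Wald SE of the fit and is not given where a group had no RNA. Levels used Python 3.11.15, and DESeq2 1.42.0 was an alternative. Bounds use TMM-scaled totals and a floor of 3 counts over the group. Shares and spreads by dose were tested by exact permutation of doses within pools.

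Replicate cultures come from 1 pool, so p-values measure only the spread between them, which the labels call technical. Each culture was divided over the 4 doses per the labels, so culture numbers pair the libraries; the deviations of same-numbered libraries correlated between -0.05 and 0.05 over 24 pairs of doses (median -0.0027). The chromosome, windows and lists were chosen with earlier results of these data known. Reporters were named by rule: the 5 highest and 5 lowest levels at 0 ng/ml, the 5 largest called falls and rises at 0.1 and at 100 ng/ml, and the 8 highest levels at 100 ng/ml among those keeping RNA. Windows named are the 4 highest, the 4 lowest and the 3 with the largest share keeping RNA; blocks of 1 Mb were looked at after these values were seen.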

Additional observations from a re-analysis of the deposited data

How the results depend on the processing

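Scaling set the number of rises: at 100 ng/ml 30 reporters were higher with DESeq2's size factors and 26 with library totals, against 53 with TMM. At 0.1 ng/ml the same scalings gave 183 and 207 lower and 21 and 20 higher, against 109 and 42 with TMM; DESeq2's Wald test gave 240 lower, and DNA counts as an offset 55. Leaving out 1 replicate of a dose gave 55 to 153 lower and 24 to 37 higher at 0.1 ng/ml. At 0.01 ng/ml DESeq2's Wald test called 5 lower and 1 higher. With the replicate block, that is the culture number as a term, 1 reporter was called higher at 0.01 ng/ml; pairing moved no other count by over 1.5 times. DNA calls ranged from 0 to 1 with 1 replicate left out. The level of chromosome 9 against the rest at 100 ng/ml was -0.41 with a DNA minimum of 100 and 0.050 with 1 Mb blocks counted once, against -0.18. The distance between the highest and lowest windows was 4.17 with windows moved by 2.5 Mb, 4.36 with 2 Mb windows and 2.95 with a pseudocount of 5, and 3.44, 3.83 and 3.15 without pools B, C and D, against 3.26. For these changes the cause was not tested. Of the values of named reporters under alternatives, 203 kept their direction and side of the threshold and 12 kept the direction but lost the call. The number of reporters keeping RNA was 117 with a DNA minimum of 100 and 146 with 50 counts in both replicates. With no RNA read for 48.1% of the reporters, depth limits how far a fall at 100 ng/ml can be measured.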
